A study of Mus musculus with 16 samples.

Results

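RNA of whole dorsal root ganglia was compared between 4 pools of female and 4 pools of male mice, over autosomal genes only. These are the 8 total RNA libraries (input, IN) of a series of 16, and they were chosen by fraction and pool code, with genes restricted to chromosomes 1 to 19 and the spike-in entries left out. Of 53379 gene IDs in the files 49158 were autosomal, and 15445 of those reached the level needed for a test. All mice were naive littermates aged 8 to 12 weeks on a C57BL/6J background, and each pool held ganglia of 3 mice of one sex. Females and males alike carried Nav1.8Cre and Rosa26fstrap, so Cre recombinase, driven by the promoter of the Nav1.8 gene Scn10a, switched on an EGFP-L10a ribosome tag in pain-sensing neurons. The IN libraries were taken from the total RNA of all cells of the ganglion and not from that tag. The other 8 libraries (IP) hold the RNA bound to tagged ribosomes of the same pools and are used here only to set a result of IN beside them.

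The dorsal root ganglion holds the cell bodies of the sensory neurons of the body. Satellite glia wrap each cell body, Schwann cells ensheathe the axons, and vessels, macrophages, fibroblasts and the meninges of the root surround them. Only a part of the ganglion is nociceptor, so RNA of the whole tissue mixes all of these cells, and in such bulk RNA fewer cells of a type and less RNA per cell cannot be told apart. Sex steroids act on target cells through nuclear receptors such as those for oestrogen, progesterone and androgen, and enzymes in the tissue convert one steroid into another. Prostaglandins are lipid mediators made from arachidonic acid by cyclooxygenases and dedicated synthases, and they act on G protein-coupled receptors, several of which sensitise nociceptors.

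Values are scaled TPM, the deposited length-corrected abundances (TPM) divided by a factor per library, given with the SD over 4 libraries. Differences are female minus male on the scale of log2(scaled TPM + 1), with the standard error (SE) of the limma fit, and this scale understates differences of genes near or below 1. Read counts are not recoverable from TPM, and how deeply each library was sequenced is unknown. The sex-linked genes followed the labels. Xist, which silences an X chromosome in female cells, was at 5.74 to 10.5 in female and at most 0.0265 in male pools, and the Y-linked helicase gene Ddx3y was at 19.2 to 22.6 in male and at most 0.0438 in female pools. The protein-coding part of the deposited TPM was 9.58% to 13.3%, and transcripts of the mitochondrial genome held 8.95% to 16.7%, with the highest share in male pool 2. This library also had the lowest median correlation with the others across genes (0.969, against 0.978 to 0.983).

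Autosomal expression differed little between the sexes. At a limma adjusted p under 0.05, 4 of 15445 genes passed (0.0259%), and all 4 were higher in male pools: Srd5a2, Ep400, Commd1 and Rnasek. The p-values were adjusted over 16099 genes, sex-linked ones included. With autosomal genes only in the fit Srd5a2 alone passed, and each of the other 3 was at a limma adjusted p of 0.0704. No gene (0) passed as higher in female pools, where 383 (2.48%) were below an unadjusted p of 0.05, against 357 (2.31%) in the male direction. The 4 libraries of each sex did not overlap for 197 genes with higher female values (1.28%) and for 227 with higher male values (1.47%). Over all 15445 genes 7833 had higher female and 7599 higher male values, and the median difference was 0.0014. On the scale of log2(scaled TPM + 1) the 95% interval lay within log2 of 1.5 in either direction for 14194 genes (91.9%). It lay within log2 of 2 for 15138 (98%), with a median SE of 0.0867. Because 1 is added, these limits are not exact folds of expression, least of all at low levels. At a mean scaled TPM of at least 5 the shares were 92.1% and 98% of 9837 genes. Estimates beyond log2 of 2 were found for 30 genes, 25 of them at that level. Chromosomes 5, 11 and 17 held the genes that passed, with 1, 2 and 1 of them.

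**Figure D1:**
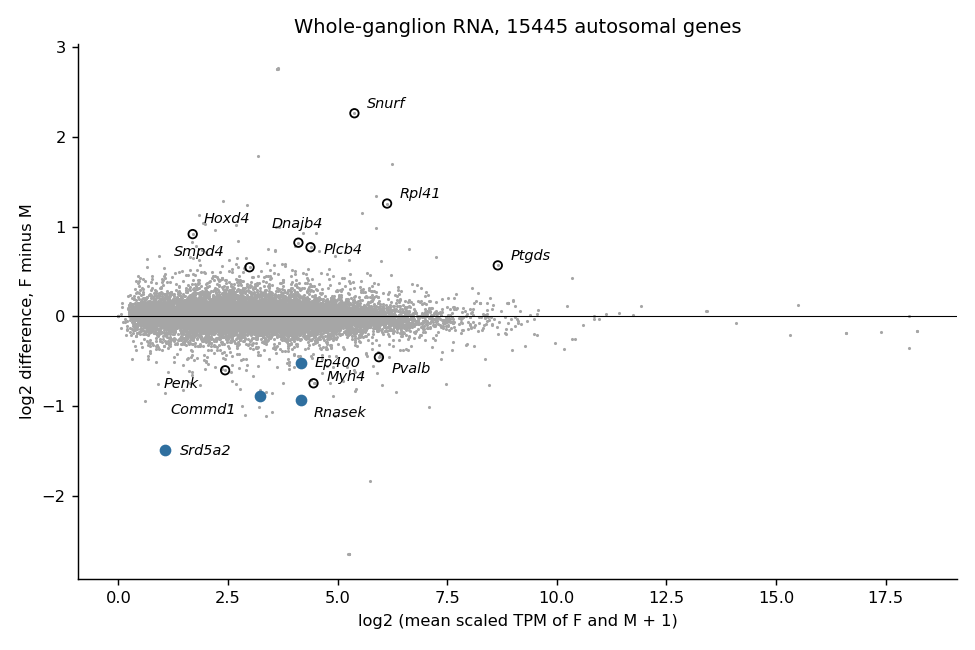
Each point is an autosomal gene, with its mean level over the female and male pools on the horizontal axis (log2 scale) and its log2 difference, female minus male, on the vertical axis. Filled points mark the 4 genes past the threshold, all below 0, and open circles mark genes named in the text that did not pass, among them Snurf at 2.26 and Ptgds at 0.57.

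Srd5a2 (ENSMUSG00000038541.7, GRCm38, chromosome 17, 74017706 to 74047916, minus strand) encodes steroid 5-alpha-reductase type 2, which turns testosterone into the more potent dihydrotestosterone. It stood at 0.189, 0.175, 0 and 0 in female pools 1 to 4 and at 2.34, 2.76, 1.92 and 1.35 in male pools 1 to 4. The lowest male library was thus far above the highest female one, at a level that is low for the ganglion. Srd5a2 passed the filter on low values through the IP libraries, where the male pools are high and the female pools near 0, and with the filter from IN alone it was not tested. A gene that enters through the group where it is high had to differ to be tested. The difference was -1.49 ± 0.14 (SE, 4 libraries a group, limma adjusted p = 0.00583), and no fold is given because the female values lie near or at 0. In ribosome-bound RNA the same pools gave 0, 0.115, 0 and 0 in females and 1.04, 1.59, 0.868 and 0.578 in males. That difference of -0.95 did not pass in IP (limma adjusted p = 0.183). These groups did not overlap either, but they are the values that let the gene through the filter and are no separate support. The change of the difference between fractions did not pass (limma adjusted p = 0.563 for the interaction). Of the 4 genes it is the one whose call held without each of the 8 libraries in turn (limma adjusted p = 0.00118 to 0.0378). Those fits kept the filter and scaling of the full set, so they do not address how Srd5a2 entered the test.

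Ep400 (ENSMUSG00000029505.17, chromosome 5, 110664373 to 110770717, minus strand) encodes the ATPase p400 of the TIP60 chromatin complex, which exchanges histone variants. It stood at 13.58, 14.06, 14.04 and 12.84 in the female pools and at 18.8, 19.9, 21.6 and 19.9 in the male pools, a male level 1.47-fold higher. The spread within each sex was small and the groups were well apart, with a difference of -0.53 ± 0.06 (SE, limma adjusted p = 0.0177). In ribosome-bound RNA the order was turned around. Female pools were at 10.7, 11.45, 11.2 and 8.655 and male pools at 7.145, 7.56, 7.47 and 7.78, again with no overlap, and the difference of 0.43 did not pass by itself (limma adjusted p = 1). The difference between the fractions was 0.96 ± 0.09 (SE), and Ep400 was the only autosomal gene of 15445 past the threshold for it (0.00647%, limma adjusted p = 0.0104). That call was lost with deposited TPM that were not scaled (0.71, limma adjusted p = 0.78) and without female pool 3 or male pool 1, 3 or 4 (0.0522 to 0.0803). Small RNA entries lie inside Ep400 and were at most at 2.62 in any IN library.

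Commd1 (ENSMUSG00000051355.18, chromosome 11, 22896136 to 22982382, minus strand) encodes a protein of copper handling, endosomal sorting and control of NF-kB. Its female values were 4.69, 5.99, 6.91 and 4.95, and its male values were 11.5, 11.5, 10.7 and 11.2, a 1.99-fold higher male mean. The male values were close to each other and all above the female ones, and the difference was -0.89 ± 0.10 (SE, limma adjusted p = 0.0223). In IP the sexes overlapped, with 10.1 to 17.6 in females and 9.07 to 19.3 in males. The locus is crowded: Zrsr1 lies inside it on the other strand, and the entry Gm28048 spans it on the same strand. Gm28048 was at 15.6 in male pool 1, 1.11 in female pool 2 and at most 0.00329 in the other 6 libraries. With both entries of the strand added together the sexes still did not overlap, at 4.69 to 7.11 in females and 10.7 to 27.1 in males (exact permutation test, two-sided, p = 0.0286, the smallest that 4 against 4 allows). Commd1 was already apart in these libraries, and Gm28048 was at most at 1.11 in a female pool. That p was thus set beforehand and is no separate support. The difference of the sum was larger, -1.13, with male pool 1 far above the other males at 27.1, and it did not pass in the limma fit (limma adjusted p = 0.813).

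Rnasek (ENSMUSG00000093989.1, chromosome 11, 70238124 to 70239842, minus strand) encodes ribonuclease kappa, a small membrane protein linked to the vacuolar proton pump. It stood at 8.78, 11.8, 12.6 and 11.9 in the female and at 23.1, 19.7, 22.8 and 24.1 in the male pools, a male level 1.99-fold higher. The groups did not overlap and the difference was -0.94 ± 0.11 (SE, limma adjusted p = 0.0242). The IP values overlapped widely, with 19.5 to 66.4 in females beside 34.7 to 61.0 in males. Rnasek is overlapped on its strand by Gm21988, which was at 4.06 to 6.72 in all 8 libraries. The sum of the pair was 14.4 to 18.7 in female and 25.4 to 28.5 in male pools, and its difference of -0.67 kept the call in the limma fit.

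**Figure D2:**
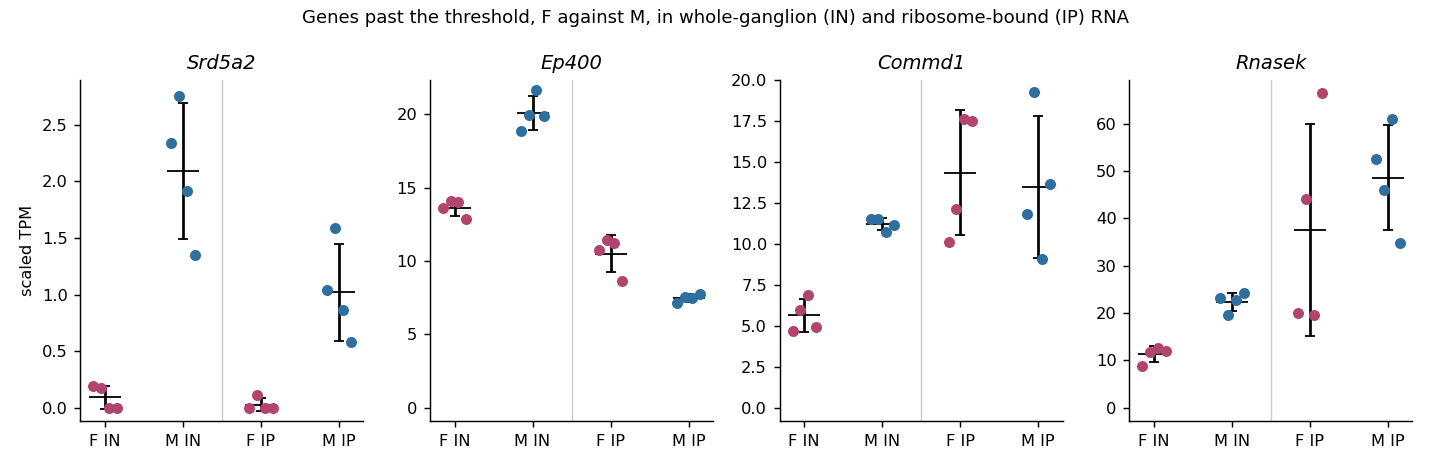
Points are scaled TPM of single libraries of the 4 genes past the threshold, in whole-ganglion RNA (F IN, M IN) and ribosome-bound RNA (F IP, M IP), with horizontal bars for the mean and error bars for the SD of 4 libraries. In IN every male point lies above every female point for all 4 genes, and for Ep400 the order is turned around in IP.

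The calls of the other 3 genes were lost in most of the fits that left out a single library, whichever sex it came from. Ep400 passed only in the fit without male pool 1 (limma adjusted p = 0.0365 to 0.0808 over the 8 fits), Commd1 only without female pool 1 or 3 (0.00764 to 0.111) and Rnasek only without female pool 1 or male pool 2 (0.0132 to 0.113). Their differences moved little in these fits, from -0.55 to -0.49, from -0.98 to -0.82 and from -0.996 to -0.83. With deposited TPM that were not scaled the split was 1 gene higher in females and 1 in males, and Srd5a2 was the one of the 4 that passed.

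The start regions of these genes are shown so that the sequence can be read beside the values. RefSeq (GRCm38.p6) gave a promoter window for 3 of the 4, from 250 bases before to 50 bases after the start, and Rnasek had no entry. All 3 windows lie on the minus strand and are printed 5′ to 3′ along it, with each CG dinucleotide in capitals. They are chr17:74047811-74048110 for Srd5a2, chr5:110770668-110770967 for Ep400 and chr11:22982235-22982534 for Commd1.
Srd5a2: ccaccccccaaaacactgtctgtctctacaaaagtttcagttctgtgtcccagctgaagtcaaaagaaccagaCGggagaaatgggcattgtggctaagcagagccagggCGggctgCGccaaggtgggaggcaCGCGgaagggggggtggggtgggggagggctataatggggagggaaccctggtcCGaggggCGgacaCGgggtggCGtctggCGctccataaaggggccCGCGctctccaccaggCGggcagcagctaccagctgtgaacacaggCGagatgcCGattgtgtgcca
Ep400: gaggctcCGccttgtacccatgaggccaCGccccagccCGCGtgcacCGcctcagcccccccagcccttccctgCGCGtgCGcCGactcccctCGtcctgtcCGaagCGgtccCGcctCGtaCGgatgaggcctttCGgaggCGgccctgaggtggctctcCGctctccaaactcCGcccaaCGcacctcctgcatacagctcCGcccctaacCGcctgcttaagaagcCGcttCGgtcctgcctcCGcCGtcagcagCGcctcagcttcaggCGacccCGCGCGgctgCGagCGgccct
Commd1: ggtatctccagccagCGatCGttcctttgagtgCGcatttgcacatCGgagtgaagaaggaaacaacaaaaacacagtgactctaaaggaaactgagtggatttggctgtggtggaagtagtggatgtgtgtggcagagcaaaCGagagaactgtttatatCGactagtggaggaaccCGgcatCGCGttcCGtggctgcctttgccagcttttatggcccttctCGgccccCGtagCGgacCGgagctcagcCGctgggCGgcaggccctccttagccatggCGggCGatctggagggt
They hold 15, 33 and 18 CG dinucleotides, against a median of 7 over 32851 RefSeq promoter windows of this length. The half-site AGAACA, which the androgen, progesterone and glucocorticoid receptors can bind, was searched on both strands and is in none of the 3 (0), while 19% of all windows hold it. The letters TATAAA on either strand are in the Commd1 window and in 13.6% of all windows.

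The genes with the next smallest p did not pass and are given as values. Smpd4, a neutral sphingomyelinase gene, came nearest in the female direction. It was at 8.65, 8.45, 7.45 and 9.24 in female and 5.09, 5.98, 5.18 and 5.61 in male pools, with no overlap and a difference of 0.55 ± 0.08 (SE, limma adjusted p = 0.0802). Its call appeared when libraries were weighted by their spread (limma adjusted p = 0.0498). Dtx3, a ubiquitin ligase gene of the Deltex family, was at 11.5 to 12.4 in females and 14.7 to 15.4 in males (-0.31 ± 0.05, SE, limma adjusted p = 0.157). Here both ranges were narrow and apart. Hoxd4, a gene of the Hox code of the body axis, was at 2.84 to 3.82 in females and at 0.95 to 0.981 in 3 male pools, with 2.19 in male pool 3 (0.92 ± 0.16, SE, limma adjusted p = 0.338). Without male pool 3, the male library nearest the female values, its difference was 1.09 and passed (limma adjusted p = 0.00454). Leaving out that library favours a call. Hoxd4 also passed with deposited TPM that were not scaled (limma adjusted p = 0.00286). Hoxd4 shares its locus and strand with Hoxd3, which was at -0.28, so reads of the pair may have been divided differently between libraries, which was not tested.

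Other genes with a small unadjusted p and no overlap between the sexes are named in part. On the female side stood Slc4a10, a bicarbonate transporter gene (0.33), Itpr1, the gene of an intracellular calcium release channel (0.33), Lepr, the leptin receptor gene (0.44), Runx1t1, a transcriptional corepressor gene (0.45), Anpep, which encodes a peptide-cleaving surface enzyme (0.43), and Pamr1 (0.38). In the male direction stood Penk, the precursor gene of enkephalins (-0.60), Grid2ip (-0.51), Tgfb1i1, a focal adhesion gene (-0.44), and Lsm7, an RNA processing gene (-0.35). Penk was at 2.65 to 4.31 in females and 4.96 to 6.38 in males. None of these genes passed (limma adjusted p = 0.338 to 0.596). Larger differences without overlap at a mean scaled TPM of at least 5 included Plcb4, a phospholipase C gene (0.77, with 16.6 to 32.3 against 11.9 to 15.5), Srp19 of the signal recognition particle (0.73) and Tmem230 (0.57). Fscn1, an actin-bundling gene, was on the male side (-0.59). Snurf had the largest such value, 2.26, but it was at 164 and 122 in female pools 1 and 4 and at 5.85 to 8.01 in the other 6 libraries, and it overlaps Snrpn. Its value is uncertain.

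Steroid hormone genes were looked at for what surrounds Srd5a2. Of 31 genes listed, 25 autosomal ones were tested, and Srd5a2 was the 1 that passed, with a list median of 0.03. Over all genes 2.48% (female side) and 2.31% (male side) were below an unadjusted p of 0.05, and of the list 2 in each direction. Among them were Ghr, the growth hormone receptor gene (0.18, without overlap), on the female side, and Srd5a2 and Hsd17b7, an enzyme of steroid and cholesterol synthesis (-0.15), on the male side. The other 5-alpha-reductase genes did not share the pattern of Srd5a2 in their values. Srd5a1 was at 4.83 to 5.91 in females and 5.23 to 6.31 in males (-0.05, 95% interval -0.23 to 0.14), and Srd5a3 was at 8.46 to 11.1 and 8.12 to 10.6 (0.04, -0.20 to 0.29). The oestrogen and progesterone receptor genes overlapped between the sexes. The oestrogen receptor gene Esr1 was at 4.74 to 6.07 in females and 3.67 to 5.91 in males (0.07, -0.21 to 0.35), the second oestrogen receptor gene Esr2 was at 0.21 to 0.49 and 0.167 to 0.428 (0.11, -0.09 to 0.31), and the progesterone receptor gene Pgr was at 2.02 to 2.59 and 2.13 to 2.60 (0.02, -0.15 to 0.20). Prlr, the prolactin receptor gene, was at 0.478 to 1.22 and 0.993 to 1.60 (-0.21, -0.52 to 0.10).

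Prostaglandin genes were examined because the series concerns prostaglandin signalling. Of 31 listed 24 were tested and none passed (0, lowest limma adjusted p = 0.962), with a median of 0.0015 beside 0.0014 over all genes. Below an unadjusted p of 0.05 were 3 on the female and 1 on the male side, beside 2.48% and 2.31% over all genes. Ptgds, which encodes the lipocalin-type prostaglandin D synthase and is abundant in meninges, was at 383, 659, 463 and 381 in female and 452, 158, 375 and 344 in male pools. The sexes overlapped, and female pool 2 and male pool 2 held the extremes. The difference was 0.57 ± 0.32 (SE, 95% interval -0.16 to 1.29, limma adjusted p = 0.962), and without male pool 2 it was 0.25. Ptgds is also on the leptomeninges list, and the summed level of the other members of that list was highest in female pool 2 (877) and lowest in male pool 2 (651). The part of meningeal tissue in the Ptgds values was not tested.

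Among the enzymes Ptgs1, the cyclooxygenase 1 gene, had a difference of 0.24 (4.51 to 6.19 against 3.63 to 4.87, overlapping), and the prostaglandin E synthase gene Ptges one of -0.08. Cbr3, a carbonyl reductase gene, was at 2.58 to 2.98 in females and 3.08 to 3.48 in males (-0.15). Of the receptors, Ptgdr for prostaglandin D2 was at 13.7 to 14.6 and 11.9 to 13.4 (0.18), a small difference without overlap. The E2 receptors Ptger1, Ptger2, Ptger3 and Ptger4 gave 0.06, 0.14, 0.04 and -0.03 and overlapped throughout. Ptger3, at 21.2 to 25.9 in females and 19.6 to 25.9 in males, had a 95% interval of -0.18 to 0.26, and the prostacyclin receptor gene Ptgir was at 8.41 to 11.1 and 10.8 to 11.5 (-0.14, -0.33 to 0.04). Abcc4, which exports prostaglandins, was at 6.17 to 7.36 and 5.53 to 5.95 (0.18), and Hpgd, which inactivates them, was at 2.74 to 3.01 and 2.47 to 2.93 (0.04, -0.11 to 0.18).

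**Figure D3:**
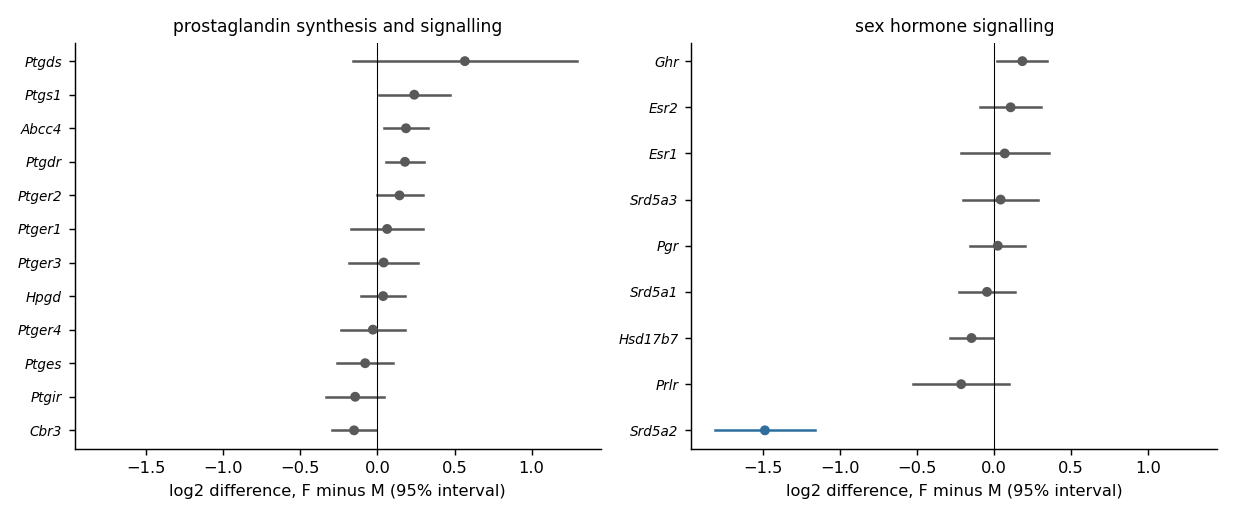
Points are log2 differences, female minus male, and lines their 95% intervals in limma, for the prostaglandin genes (left) and sex hormone genes (right) named in the text, in whole-ganglion RNA. Ptgds has the widest interval of the left panel, -0.16 to 1.29, and Srd5a2, at -1.49, is the one gene of both panels that passed the threshold.

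No neuronal gene of the lists passed. Counts of the neuronal and other cell lists are to be read beside 2.48% (female side) and 2.31% (male side) over all genes. Of all 15445 genes 7833 had higher female and 7599 higher male values. Scn10a was at 117 to 143 in female and 108 to 133 in male pools (0.15, 95% interval -0.04 to 0.34). Of 30 nociceptor genes none passed (0), 3 were below an unadjusted p of 0.05 on the female side and 0 on the male side, and the median was 0.05. They included Ctxn3 (0.30) and Mrgpra3, a receptor gene of itch neurons (0.18). Large-diameter neuron genes had a median of -0.08, with 0 of 16 past the threshold and 3 on the male side at the unadjusted p. These were Pvalb, the parvalbumin gene of muscle-sense neurons, at 48.0 to 55.0 in females and 56.3 to 81.3 in males (-0.46), the lactate dehydrogenase gene Ldhb (-0.35) and the heavy neurofilament gene Nefh (-0.18). Nefl, the light neurofilament gene, was at 623 to 700 and 742 to 792 (-0.20). The summed level of the large-diameter list was 662 to 742 in females and 778 to 869 in males, without overlap, and that of the nociceptor list 1447 to 1735 and 1483 to 1658. Of 16 pan-neuronal genes 14 had higher male values (median -0.09), and their sum was 3985 to 4376 in females and 4378 to 4646 in males. Without female pool 2 the median of the large-diameter list was -0.01. Sodium, potassium and calcium channel lists (15, 36 and 16 genes) had medians of 0.04, -0.03 and -0.01.

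Genes of myelinating Schwann cells and of the leptomeninges had medians on opposite sides of 0. Of 14 myelinating Schwann cell genes none passed (0), and the median was -0.22. At the unadjusted p 5 were on the male and 1 on the female side, beside 2.31% and 2.48% over all genes. Prx, the periaxin gene, was at 125 to 140 and 142 to 194 (-0.26), and Mal (-0.26), Gldn (-0.26) and Cldn19 (-0.23) were named after their values were seen. Mpzl2 went the other way (0.43). The summed level of the list overlapped, with 2581 to 3276 in females and 2927 to 3791 in males, and the median was -0.28 to -0.18 when each library was left out. The list of non-myelinating Schwann cells had a median of -0.03. Of 13 satellite glia genes, Apoe, a lipid carrier gene, was at 465 to 602 in females and 637 to 753 in males (-0.33), beside a list median of -0.02. The satellite glia sum was 1511 to 1707 in females and 1724 to 1946 in males, again without overlap. Apoe is a large part of that sum, with means of 546 in females and 686 in males beside mean sums of 1631 and 1813. Of the 13 genes 6 had higher female and 7 higher male values.

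Leptomeninges genes, Ptgds among them, had a median of 0.30, with 0 of 11 past the threshold. At the unadjusted p 5 were on the female side, beside 2.48% over all genes. Slc47a1, a transporter gene of these membranes, was at 8.72 to 12.2 in females and 6.21 to 9.09 in males (0.43), and Aldh1a2 (0.33), Crabp2 (0.30), Slc13a3 (0.30) and Nov (0.19) were named after their values were seen. Ogn, a matrix gene on the same list, was at -0.02. The median was 0.23 to 0.38 with each library left out. Fibroblast genes had a median of 0.12, with 2 of 13 on the female side at the unadjusted p, Pi16 (0.42) and Pdgfra (0.29, named after its value was seen). Of the 13, 4 were negative, and the summed level was 925 to 1017 in females and 870 to 1189 in males. Macrophage genes had a median of 0.13 with 0 of 12 at the unadjusted p (0.04 without male pool 2), and endothelial genes one of 0.07.

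Skeletal muscle genes, which mark tissue that can come along at dissection, split the male pools. The summed level of the 21 tested genes of the list was 255, 379, 253 and 269 in female and 633, 78.5, 739 and 457 in male pools. Male pool 2 was thus below every female pool and the other 3 male pools were above. The fast myosin gene Myh4 was at 8.91, 10.8 and 10.1 in female pools 1, 3 and 4, higher in female pool 2, and at 44.1, 2.51, 42.6 and 29.0 in males. The list median of -0.25 became -0.85 without male pool 2 and 0.04 without male pool 3. Markers of blood differed between pools of one sex, with an erythrocyte sum of 640 to 990 in females and 517 to 986 in males and a lymphocyte and granulocyte sum of 61.3 to 183 and 73.7 to 185. These sums were set beside the results and their part in them was not tested.

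**Figure D4:**
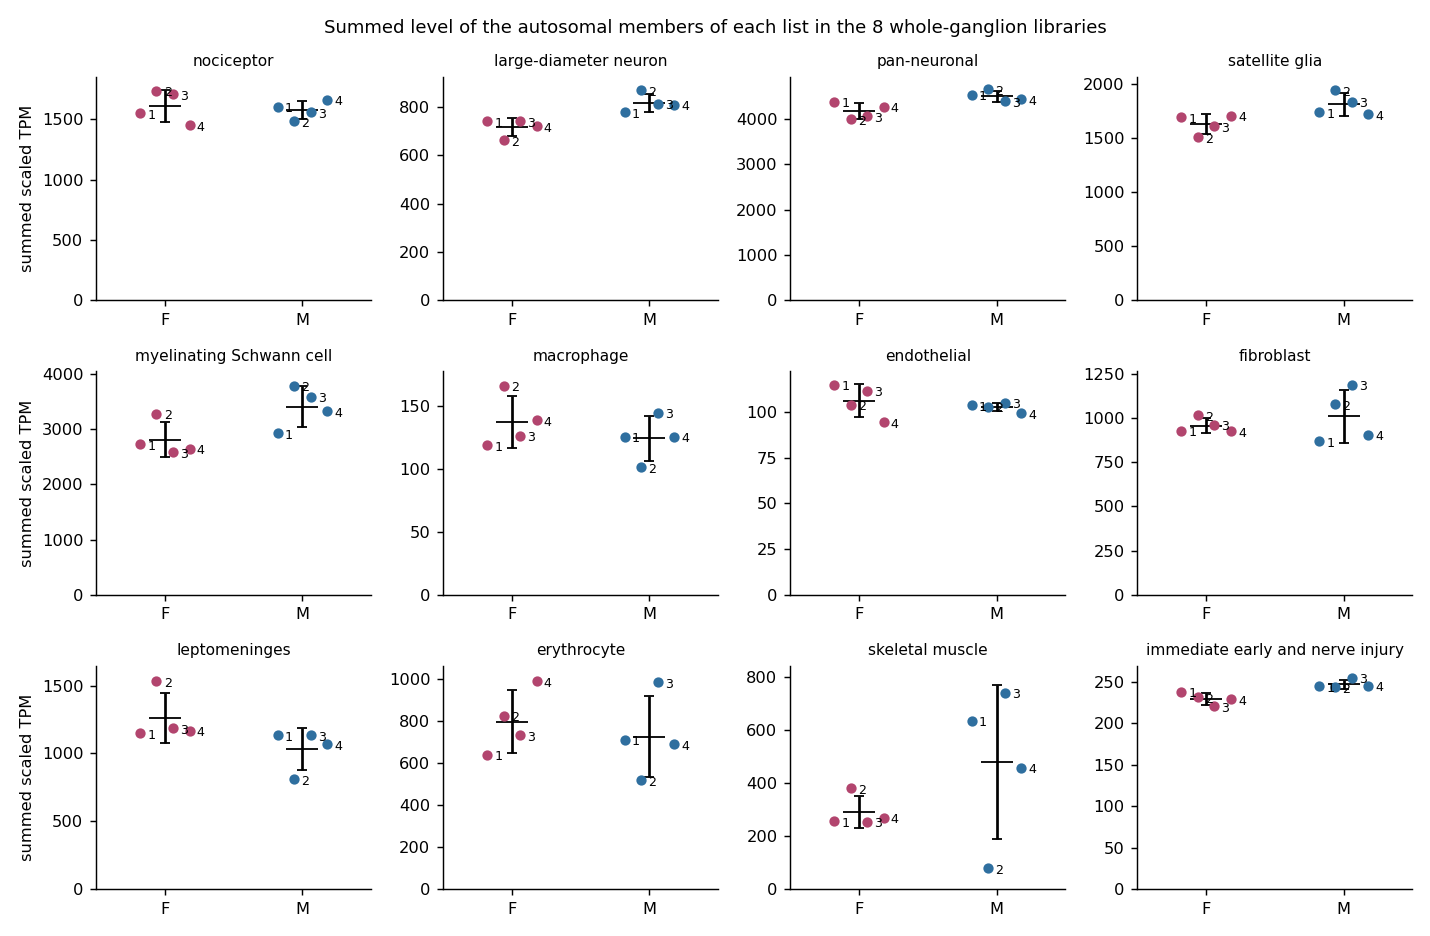
Each panel gives the summed scaled TPM of the tested autosomal members of a gene list in the 4 female and 4 male whole-ganglion libraries. Points are numbered by pool, with bars for the mean and error bars for the SD. The skeletal muscle panel has the widest male spread relative to its mean (78.5 to 739). In the large-diameter neuron panel the sexes lie apart (662 to 742 against 778 to 869). They also do so in the satellite glia and immediate early panels, and in the leptomeninges panel with females higher. Without Ptgds the leptomeninges sums overlapped, at 723 to 877 in females and 651 to 760 in males. In the pan-neuronal panel the sexes are barely apart (3985 to 4376 against 4378 to 4646).

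No gene of the pathway lists below passed, and their counts are to be read beside 7833 higher female and 7599 higher male values over all 15445 genes and beside 2.48% and 2.31% at the unadjusted p. Of 78 ribosomal protein genes 59 had higher female values, 8 of them at the unadjusted p against 0 on the male side, and the median was 0.08 (0.04 without male pool 2). The widest single spread was that of Rpl41, which stood at 113 to 118 in female pools 1, 3 and 4 and male pool 3 and at 17.9 to 26.9 in the other 4 libraries. Rps20 was at 33.8 to 38.1 in females and 15.7 to 30.2 in males (0.67). Of 30 immediate early and nerve injury genes 23 had higher male values, with 5 at the unadjusted p and 0 on the female side, and a median of -0.09. Atf3, a transcription factor gene switched on in injured sensory neurons, was at 2.03 to 2.34 in females and 2.90 to 4.26 in males (-0.49, limma adjusted p = 0.628). Sprr1a, another injury gene, was at 0 in 3 female pools and at 0.193, 0, 0.758 and 0.904 in male pools (-0.48). With IN values this near 0 Sprr1a passed the filter on low values through the IP libraries, and the count of 5 includes it. Ier3 (-0.28), Cyr61 (-0.27) and Gadd45a (-0.24) completed the 5 and were named after their values were seen. The summed level of this list was 221 to 238 in females and 244 to 255 in males.

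Cholesterol and fatty acid synthesis genes had a median of -0.08, with 23 of 28 higher in males and 4 at the unadjusted p, among them Insig1 (-0.20), Mvd (-0.18) and Sc5d (-0.14), named after their values were seen. Collagen and laminin genes had a median of -0.11, with 3 of 32 on the male and 1 on the female side. Col4a2 and Col4a1, which encode chains of basement membrane collagen from a shared locus, gave -0.33 and -0.30, Col28a1 -0.22 and Col12a1 0.27, and of these Col4a1, Col28a1 and Col12a1 were named after their values were seen. Clock and glucocorticoid genes gave 3 of 23 on the female side, Zbtb16 (0.65), Npas2 (0.39) and Nr1d1 (0.21, named after its value was seen), with a median of 0.05. Heat shock and chaperone genes had a median of -0.03. Dnajb4 stood out among them, with 17.6 to 22.5 in females and 9.59, 21.9, 8.65 and 8.11 in males (0.82, limma adjusted p = 0.962). Without male pool 2 its difference was 1.13 and passed (limma adjusted p = 0.00777). That library is the male pool at the female level, so leaving it out favours a call. Interferon response, oxidative phosphorylation and translation control genes (32, 68 and 43 tested) had medians of 0.03, -0.01 and 0.00.

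**Figure D5:**
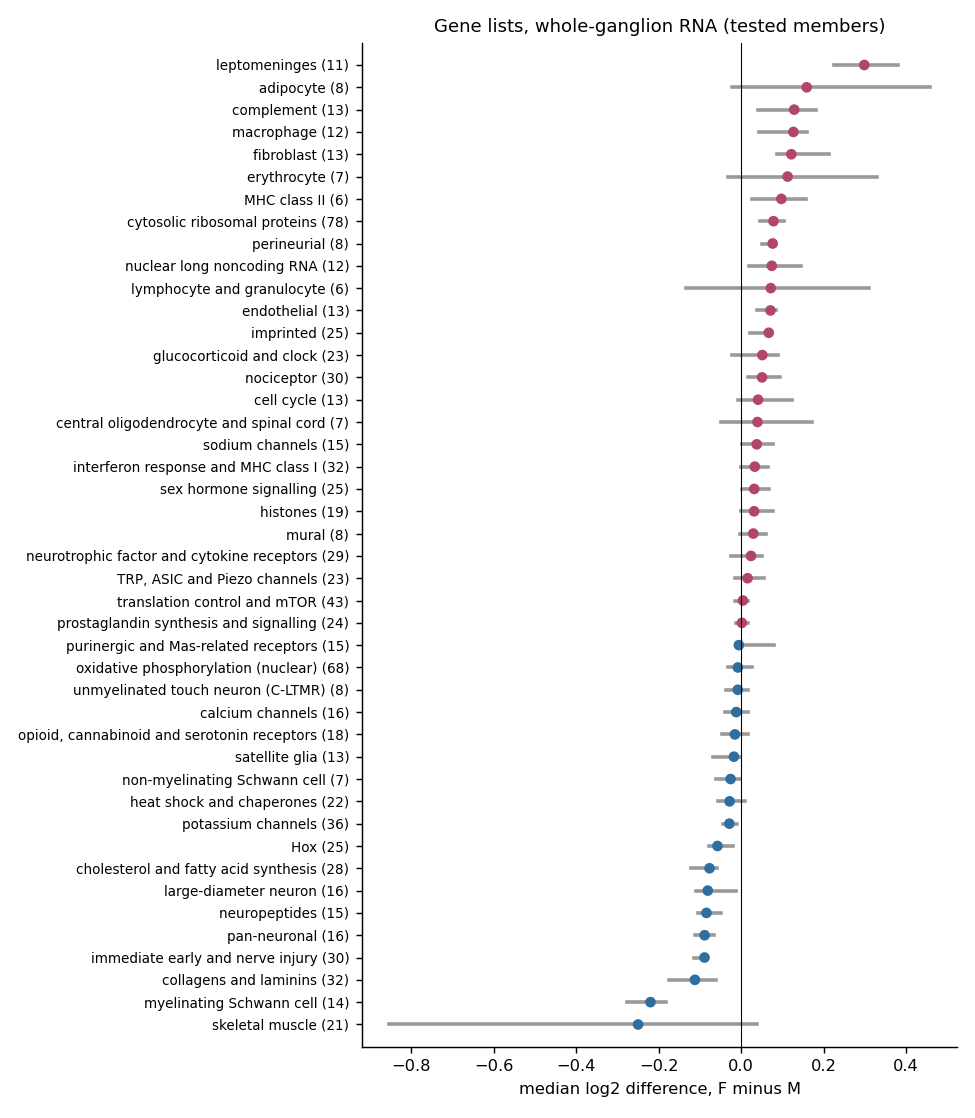
Points are the median log2 difference, female minus male, over the tested members of each gene list with at least 6 of them (number in brackets), and grey lines span the medians when each library was left out in turn. Leptomeninges lie at 0.30 and myelinating Schwann cells at -0.22, while the skeletal muscle line runs from -0.85 to 0.04.

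The same comparison in ribosome-bound RNA also gave few calls. There 1 of 15445 autosomal genes passed (0.00647%), Gm527, named after its value was seen, with 6.82 to 7.74 in female and 3.26 to 4.13 in male IP libraries (0.82, limma adjusted p = 0.018). In whole-ganglion RNA Gm527 was at 7.47 to 9.27 in females and 5.32 to 9.16 in males and the sexes overlapped. Its difference between the fractions did not pass (0.49, limma adjusted p = 1).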

How the data were processed

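RNA-seq values of 16 libraries were used, 8 of them (IN) for the main comparison. The submitters' processing notes name STAR 2.2.1, StringTie 1.3.5, FastQC and the build GRCm38.p5, and the sources used here give neither annotation nor strand setting. The values that the authors deposited were read as TPM, because they sum to 1000000 in each library. Read depth is unknown. Where genes overlap, their reads may not be separable. Of 90 genes looked at, 15 overlap an entry with a mean scaled TPM of at least 1.

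TPM were divided by median-of-ratios factors (0.375 to 0.532 in IN), and log2 was taken after adding 1. Genes with a mean deposited TPM of at least 1 over the IN or the IP libraries (16099, of which 15445 autosomal) entered linear models (limma 3.58.1, R 4.3.3, intensity trend, two-sided, Benjamini-Hochberg over all 16099). The interaction used the pool as a block. The fit was tested on simulated data.

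The libraries, the 46 gene lists (994 of 996 symbols matched, 2 by synonym) and the rules were chosen with earlier results of these data known. Named were genes past the threshold, those with the smallest p, the largest without overlap at a mean of 5, list extremes, and all prostaglandin and sex hormone genes. The pools of a group are separate mice per the labels. Alternatives covered scaling, pseudocount, filter, model and left-out libraries. Some results are not reported here.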

Additional observations from a re-analysis of the deposited data

Results flagged for a closer look

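Ep400 was singled out because its female minus male difference was not the same in the 2 fractions. The difference in ribosome-bound RNA exceeded that in whole-ganglion RNA by 0.96 ± 0.09 (SE, limma adjusted p = 0.0104), with the sexes apart and in opposite order in each fraction. Without female pool 3 or male pool 1, 3 or 4 the adjusted p in limma was 0.0522 to 0.0803, at a size of 0.92 to 0.98. With deposited TPM that were not scaled the call was lost as well (0.71, limma adjusted p = 0.78).

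In 18 of 272 groups of 4 libraries the highest or lowest library stood far from the other 3, where chance gives about 1 in 20. Among female pools these were Pamr1 in pool 2 (3.94 against 3.40 to 3.48), Myl1 in pool 2 (20.6 against 9.38 to 10.9), Sprr1a in pool 3 (0.0662 against 0) and Rpl41 in pool 2 (26.9 against 113 to 118). Among male pools they were Hoxd4 in pool 3 (2.19 against 0.95 to 0.981), Cyr61 in pool 3 (4.98), Rpl41 in pool 3 (114.5 against 17.9 to 25.8), Tgfb1i1 in pool 4 (11.7 against 8.61 to 8.80) and Fscn1 in pool 1 (12.7 against 17.6 to 18.4). Male pool 2 was apart for Dnajb4 (21.9 against 8.11 to 9.59) and Ptger1 (1.29).

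Summed list levels stood apart in female pool 2 for the leptomeninges (1534 against 1150 to 1185), skeletal muscle (379 against 253 to 269) and potassium channels (954 against 992 to 998). They did so in female pool 3 for sex hormone signalling (458 against 427 to 431), in male pool 2 for complement (130.1 against 201.3 to 204.5) and in male pool 3 for immediate early genes (255 against 244 to 246) and translation control (2436 against 2320 to 2336).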

How the results depend on the processing

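The 4 calls of the main comparison depended on the setting. The number of autosomal genes past the threshold was 2 with deposited TPM that were not scaled, 1 with autosomal genes only in the fit, 2 with all 16 libraries in one fit and 0 of 3090 at a mean deposited TPM of at least 10 (133 below an unadjusted p of 0.05 in limma), and 1 to 5 when each library was left out. All 4 genes were called with quantile normalization, a constant protein-coding sum, a pseudocount of 0.1, no intensity trend and array weights. With no filter 4 genes passed, 2 of them the same (Ep400 and Srd5a2). With scaling and filter from the IN libraries alone Srd5a2 was not tested and the other 3 passed. Without scaling the median of all autosomal differences was 0.09, and the values above are relative to a median of 0.0014. In ribosome-bound RNA the count of 1 became 2 with quantile normalization, 2 with a pseudocount of 0.1 and 0 to 4 with a library left out. For the interaction the count of 1 became 7 with deposited TPM, without Ep400 among them, 2 with a pseudocount of 0.1 and 0 to 3 with a pool left out. The cause was not tested. No gene named and called changed its sign. Adding overlapping entries was chosen after seeing the data.

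Female and male pools share only a number. The deviations of same-numbered libraries correlated at -0.29 to 0.09, and no library correlated best with its own number. With the replicate block 1 gene passed in whole-ganglion RNA (Srd5a2) and 0 in ribosome-bound RNA (266 below an unadjusted p of 0.05 in limma).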
